A study of Mus musculus with 170 samples.

Results

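CD4 memory T cells of the spleen were compared between old and young mice, using every library that the labels give to that cell type. There were 10 such libraries among 170 in the series, 5 from old and 5 from young animals. All mice were of C57/Bl6 background. Young animals were 2 months old and old animals 22 to 24 months, with no further treatment, allele or agent in the labels. Cells were purified by flow cytometric sorting, and tissue of 5 animals was pooled for each library, so a library is a pool and not one mouse. The labels give no gates for memory cells, and no label says whether a replicate number marks a shared day or batch. RNA was read from the 3' ends of poly(A) transcripts, which lets a gene be compared across libraries but not one gene with another.

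Memory CD4 T cells are the helper cells left behind by earlier immune responses. They recognise peptides on MHC class II molecules, carry high surface CD44, an adhesion receptor for hyaluronan, and divide into lineages with their own master regulators: T-bet (Tbx21) for Th1, GATA3 for Th2, BCL6 for follicular helper and FOXP3 for regulatory T cells. A further fraction carries granzymes and chemokines like a killer cell, with EOMES as a regulator. In old mice the memory compartment is known to take up a larger share of CD4 T cells as naive cells dwindle.

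Levels below are CPM, counts relative to the total of each library after TMM scaling, listed in the order of replicates 1 to 5, and changes are log2 differences, old minus young, with their standard error. A gene was called where the Benjamini-Hochberg adjusted p of edgeR's quasi-likelihood test lay under 0.05. The libraries held 1107420 to 12734169 counts. Cd4, the co-receptor for MHC class II, stood at 314, 363, 416, 349.9 and 316 CPM in young libraries and 357, 395, 464, 286 and 399 CPM in old ones, so that the groups overlapped. Cd3e, a subunit of the T cell receptor complex, ranged from 408 to 554 CPM in young libraries and from 575 to 767 CPM in old ones, and 13 of 15 T cell identity genes had positive values with 1 called.

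The memory markers did not hold evenly across the old libraries. Cd44 stood at 203, 297, 232, 255 and 251 CPM in young libraries and 181, 286, 316, 77.9 and 60.8 CPM in old ones. Old replicates 4 and 5 lay below every other library for Cd44, and the same was true of Itgb1, the beta-1 integrin, at 117 and 156 CPM against 538 to 756 CPM elsewhere. S100a4 and Crip1, which mark experienced T cells, were also lowest in those libraries. Igfbp4, a gene of naive CD4 cells, stood at 346 and 117 CPM in old replicates 4 and 5 and at 23.1 CPM or less in the other 8. Other naive genes did not go with it in both libraries. Lef1 stood at 505 CPM in old replicate 4 and 210 CPM in old replicate 5, and Ccr7 at 169 and 46.9 CPM. The naive and central memory list summed to 4155 and 2026 CPM there, the highest and the lowest sum of the 10 libraries. On high naive genes the 2 libraries thus differed. On a principal component holding 32.9% of the variance old replicates 4 and 5 lay at 51.2 and 57.5, while old replicates 1 to 3 lay between -4.67 and 9.76 and the young between -38.6 and -9.5. Beside the other memory libraries, those labelled CD4 memory old 4 and 5 thus went against their label for Cd44, though not for Cd4. On a scale shared with CD4 naive libraries they still lay above the 4 labelled CD4 naive young. Cd44 stood at 68.6 and 53.8 CPM against 17.6 to 40.1 CPM, and Itgb1 at 104 and 138 CPM against 31.0 to 34.5 CPM. Counts of called genes below are also given without old replicates 4 and 5, a setting chosen after seeing the data.

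**Figure D1:**
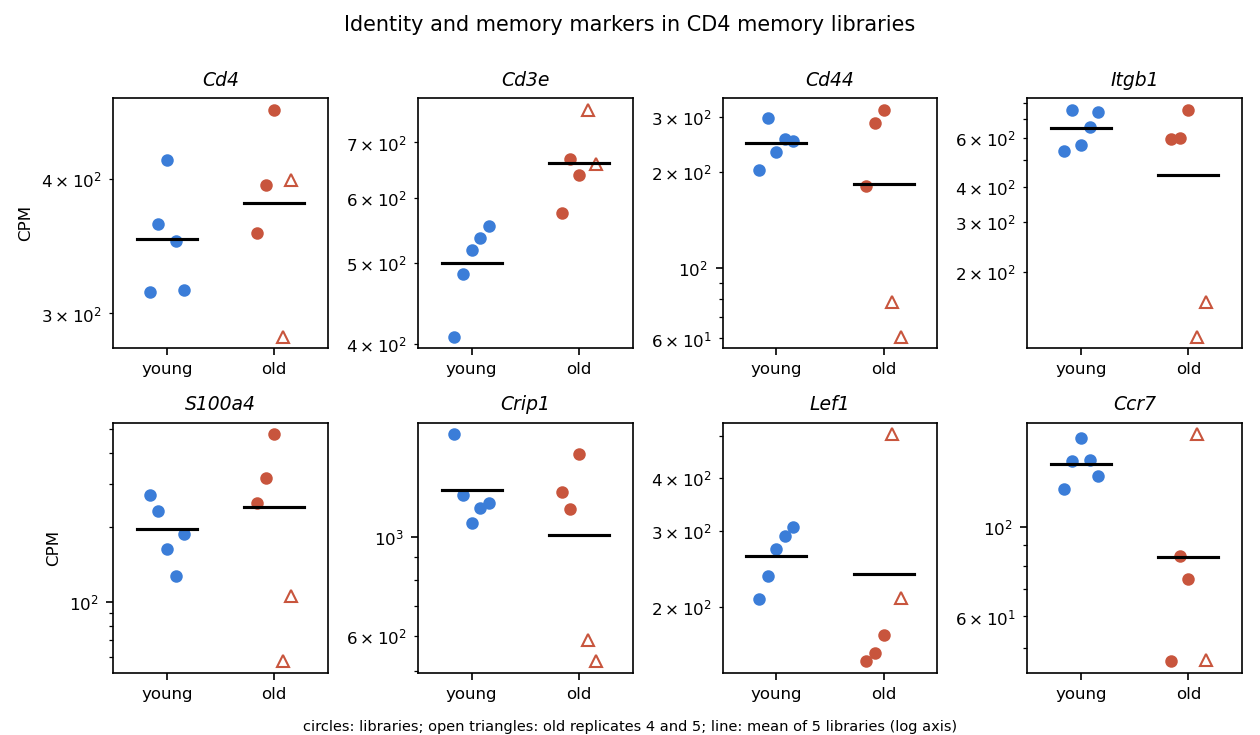
Level in CPM (log axis) of 8 T cell and memory genes in each of the 5 young and 5 old CD4 memory libraries, with a line at the mean of each group. Old replicates 4 and 5, drawn as open triangles, lie lowest for Cd44, Itgb1, S100a4 and Crip1, and old replicate 4 lies with or above the young libraries for Lef1 and Ccr7.

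Across 10445 genes tested, 152 were higher in old cells (1.46%) and 173 lower (1.66%), 325 in all (3.11%). Of these, 116 higher and 150 lower genes changed by more than 2-fold, and the median log2 change of all genes tested was 0.01. The 5 old libraries lay wholly above the 5 young for 227 genes (2.17%) and wholly below for 214 (2.05%), among them 127 of the higher and 118 of the lower calls. Without old replicates 4 and 5, 176 genes were higher (1.49%) and 129 lower (1.09%) of 11832 tested, 305 in all (2.58%). The shared calls were 98 higher and 98 lower genes, and all 152 and 173 genes kept their sign. For the 127 and 118 without overlap, leaving out old libraries could hardly reverse it. Old replicate 5 held the highest old value for 83 of the 152 higher genes (54.6%, against 22.2% of all genes). Young replicate 2 held the highest young value for 92 of the 173 lower genes (53.2%, against 19.2% of all genes), and without it the calls numbered 78 higher and 55 lower. Without young replicate 1 they numbered 89 and 79, and without old replicate 5 they numbered 116 and 97, while without young replicate 4 they were 122 and 115.

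Genes of cytotoxic effector cells rose in old CD4 memory cells. Of 20 tested members of that list (21 listed), 8 rose and 2 fell, with a median change of 0.90 against 0.01 for all genes. Without old replicates 4 and 5 the count was 7 rising and 2 falling of 20, with a median of 0.46. Gzmk, which encodes granzyme K, a serine protease of cytotoxic granules (chr13:113171608-113225908, minus strand, on GRCm38), stood at 26.8, 32.5, 34.0, 21.5 and 24.2 CPM in young libraries and 221, 182, 164, 262 and 399 CPM in old ones. The lowest old library lay several times above the highest young one. The log2 change of Gzmk was 3.13 ± 0.25, a fold of 8.85 between means, with an adjusted p of 3.40e-05, and 2.74 with an adjusted p of 7.18e-06 without old replicates 4 and 5. Eomes, the T-box factor that drives cytotoxic programmes (chr9:118478212-118486132, plus strand), stood at 16.3, 16.2, 29.6, 16.3 and 11.5 CPM in young libraries and 59.6, 108, 34.5, 267 and 436 CPM in old ones. Every old library exceeded every young one, and old replicates 4 and 5 were highest. Its change was 3.32 ± 0.59 (adjusted p 0.0102), and 1.89 (adjusted p 0.0123) without those libraries.

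Ccl5, a chemokine that draws T cells and monocytes, stood at 1960.5, 1245, 1292, 985 and 1066 CPM in young libraries and 4661, 3521, 2207, 8466 and 19950 CPM in old ones. The groups did not overlap, and old replicate 5 was far above every other library. The change of Ccl5 was 2.57 ± 0.48 (adjusted p 0.0125), and 1.39 (adjusted p 0.00739) without old replicates 4 and 5. Nkg7, a granule membrane protein needed for killing, stood at 503, 324, 309.6, 308 and 314 CPM in young libraries and 888, 594, 552, 845 and 1459 CPM in old ones, again with no overlap. It rose by 1.30 ± 0.25 (adjusted p 0.0137). Prf1, the pore-forming perforin, went from 4.35 to 13.2 CPM to 12.4 to 74.1 CPM, with old replicate 3 inside the young range, and rose by 2.36 ± 0.45 (adjusted p 0.0137). Cst7, an inhibitor of granule cathepsins, moved with the narrowest spread, at 69.9 ± 10.3 CPM in young libraries and 183 ± 31.3 CPM in old ones (SD, n = 5 each), a change of 1.39 ± 0.16 (adjusted p 6.38e-04). Ctsw, a granule cathepsin, and Crtam, an adhesion receptor of cytotoxic CD4 cells, completed the 8, with changes of 1.19 ± 0.26 and 1.37 ± 0.31. Over the 10 fits that left out 1 library their calls held in 8 and 3, with highest adjusted p of 0.0705 and 0.0883, both without young replicate 2.

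The list did not move as one. Klrd1, the CD94 subunit of receptors that natural killer cells use to read MHC class I, changed by -1.62 ± 0.30 (adjusted p 0.0110), at 53.8, 74.8, 30.7, 44.4 and 45.2 CPM in young libraries and 18.2, 9.18, 23.0, 19.1 and 10.6 CPM in old ones. Gzma, granzyme A, stood at 88.1, 37.6, 128, 65.1 and 47.1 CPM in young libraries and 37.4, 19.0, 23.1, 11.6 and 31.7 CPM in old ones, with no old library above the lowest young one, a change of -1.61 ± 0.35 (adjusted p 0.0229). Granzymes K and A thus moved in opposite directions in the same libraries. Gzmb, the granzyme of classical killer cells, was not called, at 8.91 to 29.7 CPM in young libraries and 10.7 to 78.0 CPM in old ones (adjusted p 0.715). No tested gene on the natural killer or CD8 T cell lists was called higher. Of 6 tested natural killer genes (10 listed) 0 were higher and 2 lower (0 lower without old replicate 2 or young replicate 1, and 1 of 7 without old replicates 4 and 5). The natural killer list summed to 520.3 to 1229 CPM in young libraries and 105 to 482 CPM in old ones. Much of that sum was Tyrobp, at 164 to 661 CPM in young and 29.1 to 214 CPM in old libraries, and Fcer1g, at 166 to 484 and 23.1 to 220 CPM. Ncr1, Klra4, Klra8 and Klra7 did not pass the filter on low counts, so the sum is a weak measure of killer cells. The CD8 list summed to 30.5 to 103 CPM in young libraries and 39.7 to 85.5 CPM in old ones. Cd8a did not pass the filter on low counts, and the 2 CD8 genes tested had changes of -1.11 and 0.84, neither called. The part of natural killer and CD8 cells in the rise of cytotoxic genes was not tested. Gzma lost its call without either of 2 libraries, old replicate 2 or young replicate 1, with a highest adjusted p of 0.0600, whereas Gzmk, Eomes, Ccl5, Nkg7, Prf1, Cst7 and Klrd1 kept theirs in all 10 fits that left out 1 library. The count of rising members ranged from 6 to 8 over those fits.

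**Figure D2:**
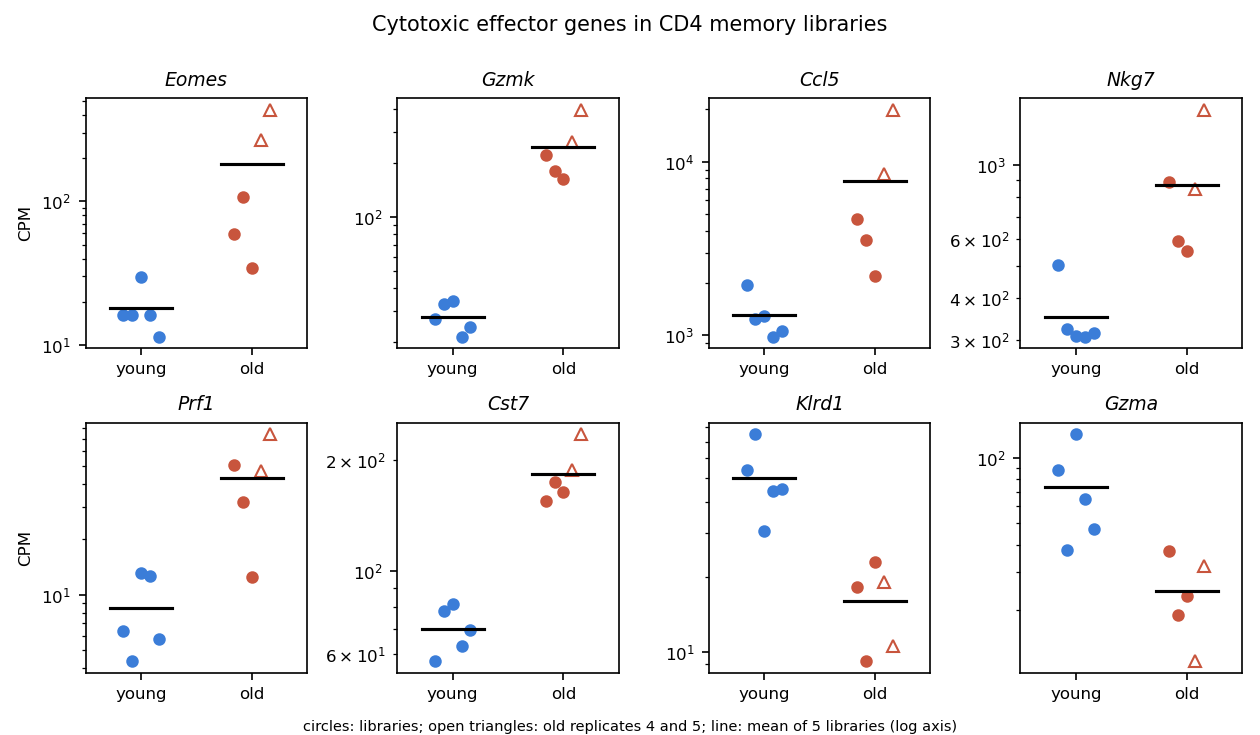
Level in CPM (log axis) of 8 cytotoxic effector genes in each young and old CD4 memory library, with group means. Gzmk rises from 21.5 to 34.0 CPM in young to 164 to 399 CPM in old libraries, while Klrd1 and Gzma are lower in old.

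The proximal promoters of the granzyme K and NKG7 genes are shown because both genes rose and EOMES belongs to the T-box family. They run from 250 bases before to 50 after the start, 5′ to 3′ on the gene's own strand, from RefSeq on GRCm38.p6, and capitals mark a match to the T-box letters AGGTGTNA on either strand. The Gzmk window is chr13:113180916-113181215 and the Nkg7 window is chr7:43436888-43437187.
Gzmk: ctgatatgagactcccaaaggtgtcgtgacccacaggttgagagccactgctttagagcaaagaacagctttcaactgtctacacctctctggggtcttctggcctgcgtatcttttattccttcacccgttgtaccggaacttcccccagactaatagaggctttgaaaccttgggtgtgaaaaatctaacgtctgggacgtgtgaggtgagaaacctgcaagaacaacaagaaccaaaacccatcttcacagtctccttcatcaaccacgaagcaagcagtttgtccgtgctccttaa
Nkg7: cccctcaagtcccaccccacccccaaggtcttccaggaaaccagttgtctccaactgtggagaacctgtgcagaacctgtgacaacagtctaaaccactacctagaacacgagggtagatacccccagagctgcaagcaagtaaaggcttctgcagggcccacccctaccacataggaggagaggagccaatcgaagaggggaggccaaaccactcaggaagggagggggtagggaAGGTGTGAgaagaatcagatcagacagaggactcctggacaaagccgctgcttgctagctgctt
The match in Nkg7 begins 14 bases before the start, and the Gzmk window holds none of these letters. The T-box letters occurred in 1 of 5 promoters available for the 8 rising cytotoxic genes and in 3.52% of 27025 promoters in the table. A match is a string of letters and not a measured binding site.

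Follicular helper genes also rose. These cells help B cells in germinal centres, and of 17 tested members of their list (19 listed) 6 rose and 0 fell, with a median of 0.74; without old replicates 4 and 5 the count was 7 and 0 of 19. Maf, a transcription factor needed for interleukin 21 and 4 production (chr8:115682942-115707794, minus strand), stood at 312, 378, 407, 427 and 470.2 CPM in young libraries and 727, 971, 773, 554 and 1277 CPM in old ones. The lowest old library was above the highest young one, and the change was 1.11 ± 0.20 (adjusted p 0.0110). Sostdc1, a secreted antagonist of BMP and Wnt signals made by follicular helper cells, stood at 30.7, 85.1, 100.4, 104 and 83.4 CPM in young libraries and 392, 558, 1097, 115 and 109.8 CPM in old ones. Old replicates 1 to 3 were several times above all young libraries, whereas old replicates 4 and 5 lay just above the highest young value. Its change was 2.51 ± 0.55 (adjusted p 0.0245) and 3.09 (adjusted p 4.75e-04) without those libraries. Il21, the cytokine that drives B cell differentiation, showed the same division, at 8.51, 15.8, 10.4, 30.3 and 14.6 CPM in young libraries and 76.8, 74.7, 95.9, 12.3 and 34.4 CPM in old ones, where old replicate 4 fell inside the young range. Its change was 1.96 ± 0.46 (adjusted p 0.0336) and 2.43 (adjusted p 7.89e-04) without old replicates 4 and 5.

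Bcl6, which defines the follicular helper lineage, was not called, at 16.3 to 28.9 CPM in young libraries and 15.7 to 49.6 CPM in old ones (change 0.20 ± 0.32, adjusted p 0.883). Cxcr5, the receptor that leads these cells into follicles, was not called either (change 0.69 ± 0.27, adjusted p 0.221). Sh2d1a, the adaptor SAP, and Tox2, a nuclear factor of follicular helper cells, completed the 6 with changes of 0.74 ± 0.16 and 1.25 ± 0.30. In fits that left out 1 library, Maf kept its call in 10 of 10, Pdcd1 in 8, Sostdc1 in 7, Sh2d1a in 6, Il21 in 3 and Tox2 in 3, with highest adjusted p of 0.0621, 0.0660, 0.0756, 0.0965 and 0.0963 for the 5 that lost it. Removing young replicate 2 cost all 5 of these their calls and left 1 rising gene in the list. The count was 2 without young replicate 1, 3 without young replicate 5 and 4 to 8 in the other 7 fits.

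Inhibitory receptors and genes of chronically stimulated T cells overlapped with that list. Of 17 tested members (18 listed) 5 rose and 0 fell, and without old replicates 4 and 5 the count was 3 and 0. In fits leaving out 1 library 2 rose without young replicate 1 or 2, 3 without old replicate 2 or 5 or young replicate 3 or 4, and 4 in the other 4. Pdcd1, the checkpoint receptor PD-1, stood at 75.7, 67.3, 95, 112 and 113 CPM in young libraries and 166, 167, 295, 148 and 489 CPM in old ones, with no overlap and a change of 1.46 ± 0.31 (adjusted p 0.0207). Tox, a nuclear factor tied to persistent antigen stimulation (chr4:6686353-6991557, minus strand), stood at 139.9, 149.6, 178, 195 and 205 CPM in young libraries and 469.6, 390.0, 377, 439 and 768 CPM in old ones. All old libraries lay well above all young ones, with a change of 1.49 ± 0.20 (adjusted p 0.00193) that held in all 10 fits leaving out 1 library. Nt5e, the ectoenzyme CD73 that makes adenosine, rose by 0.97 ± 0.18 (adjusted p 0.0121). Tigit, a receptor that competes with CD226 for ligand, rose by 1.01 ± 0.25 (adjusted p 0.0398) but kept its call in 1 of 10 such fits and had an adjusted p of 0.185 without old replicates 4 and 5. Havcr2 (TIM-3) and Lag3 were not called, with changes of -1.42 ± 0.39 and 1.33 ± 0.39 (adjusted p 0.0660 and 0.0897).

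Genes linked to regulatory T cells and to costimulation shared 3 of their 4 rising members, Tnfrsf4, Tnfrsf18 and Tnfrsf9. Tnfrsf4, the costimulatory receptor OX40, stood at 254, 259.6, 326, 306 and 305 CPM in young libraries and 562, 474, 808, 485 and 676 CPM in old ones, with no overlap and a change of 1.05 ± 0.17 (adjusted p 0.00549). Tnfrsf18 (GITR) and Tnfrsf9 (4-1BB), receptors of the same family, rose by 0.63 ± 0.14 and 1.16 ± 0.30 (adjusted p 0.0271 and 0.0489), and both lost their calls without old replicates 4 and 5 (adjusted p 0.0925 and 0.262). Cd82, a tetraspanin, rose by 0.86 ± 0.16 (adjusted p 0.0125). In all, 4 of 17 regulatory T cell genes (18 listed) and 4 of 15 costimulation genes rose and 0 fell in either list, while without those libraries 3 regulatory T cell genes rose and 2 fell of 18 and 3 costimulation genes rose and 0 fell of 15. Over the fits that left out 1 library the rising regulatory T cell genes numbered 1 without old replicate 5 or without young replicate 1, 2, 3 or 5, and 3 to 6 in the other 5, while the costimulation genes numbered 2 without young replicate 1, 2, 3 or 5 and 3 or 4 in the other 6. Foxp3, the regulator that defines regulatory T cells (chrX:7573644-7595245, plus strand), was not called. It stood at 17.8, 23.7, 42.3, 35.5 and 29.3 CPM in young libraries and 29.3, 35.1, 13.0, 69.7 and 83.3 CPM in old ones, highest in old replicates 4 and 5 and lowest in old replicate 3. Its change was 0.62 ± 0.42 (adjusted p 0.614) and -0.24 (adjusted p 0.866) without old replicates 4 and 5. Il10 and Areg had large positive values, 2.79 ± 0.82 and 3.09 ± 0.82, that did not pass (adjusted p 0.0893 and 0.0564). Both genes were highest in old replicates 4 and 5, and without those libraries the changes were 1.52 and 1.08 (adjusted p 0.487 and 0.544).

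Among cytokines 3 of 15 tested genes (21 listed) rose and 0 fell, and the counts were also 3 and 0 of 15 without old replicates 4 and 5. With 1 library left out, 2 rose without old replicate 1 or young replicate 1, 2, 3 or 5. The count was 3 without old replicate 2, 3, 4 or 5, and 5 without young replicate 4. Penk, the precursor of the opioid enkephalins, stood at 45, 55.0, 41.7, 45.1 and 49.0 CPM in young libraries and 99.98, 144, 118, 122 and 158 CPM in old ones. The young values spanned a narrow range that every old library exceeded, and the change was 1.45 ± 0.16 (adjusted p 4.16e-04). Csf1, the growth factor of macrophages, stood at 8.51, 3.17, 6.04, 6.66 and 1.27 CPM in young libraries and 18.2, 20.3, 28.3, 24.6 and 55.5 CPM in old ones and rose by 2.46 ± 0.42 (adjusted p 0.00857). Ifng, the Th1 cytokine, had a change of 0.92 ± 0.43 that did not pass (adjusted p 0.370).

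Of 24 genes that set survival or death, 3 rose and 0 fell, and 4 and 0 without old replicates 4 and 5. Bcl2, which protects mitochondria from death signals (chr1:106538178-106714274, minus strand), stood at 95.4, 141, 126, 150.2 and 129 CPM in young libraries and 369.6, 338, 327, 389 and 303 CPM in old ones. The old values lay close together, old replicates 4 and 5 included, and none came near the young range. The change was 1.43 ± 0.15 (adjusted p 3.28e-04), and 1.42 (adjusted p 4.89e-04) without those libraries. Casp4, an inflammatory caspase that senses bacterial lipopolysaccharide, stood at 49.9, 45.1, 48.8, 47.3 and 63.6 CPM in young libraries and 126, 161, 177, 82.7 and 147 CPM in old ones and rose by 1.46 ± 0.20 (adjusted p 0.00193). Fas, the death receptor, rose by 0.74 ± 0.17 (adjusted p 0.0289), a call kept in 3 of 10 fits that left out 1 library (highest adjusted p 0.0827).

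**Figure D3:**
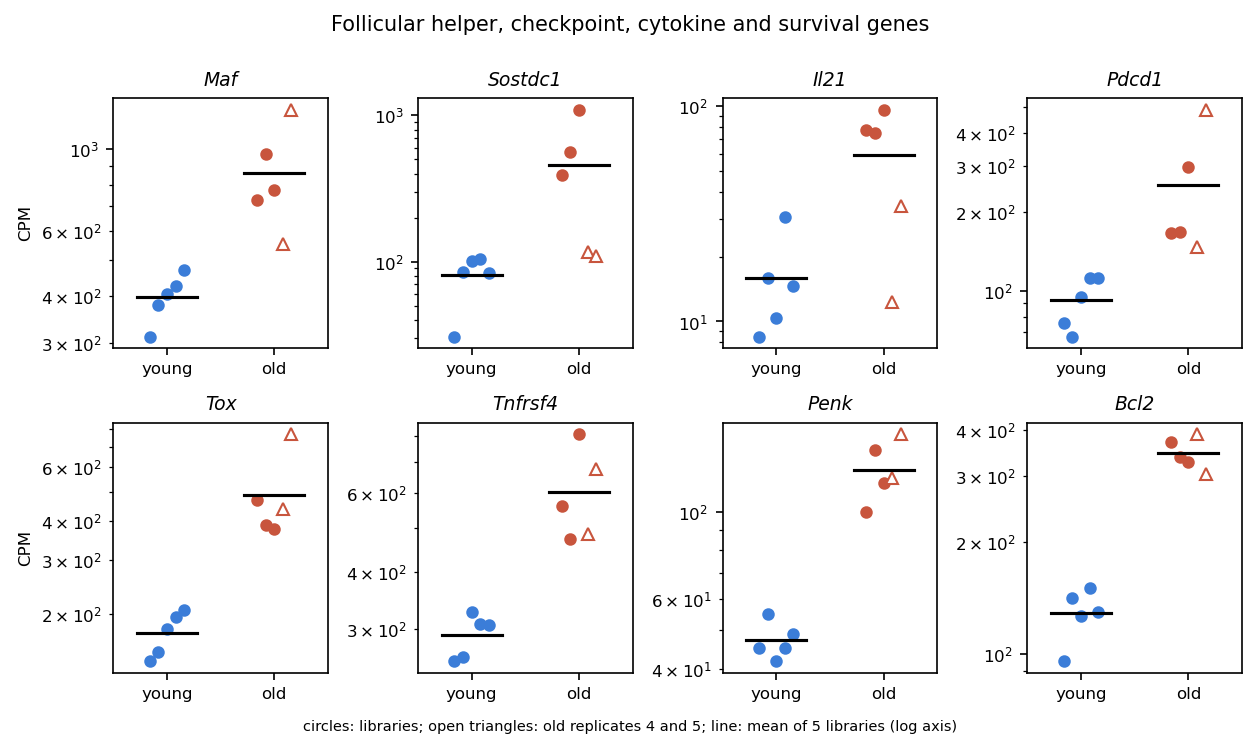
Level in CPM (log axis) of 8 genes of follicular helper cells, checkpoints, cytokines and survival in each young and old CD4 memory library, with group means. Bcl2, Penk and Tox are higher in every old library than in any young one, whereas Sostdc1 and Il21 are highest in old replicates 1 to 3.

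Other genes with the highest changes were of varied function. Ecel1, a membrane endopeptidase best known from neurons (chr1:87147655-87156521, minus strand), stood at 3.16, 0.792, 2.74, 1.48 and 6.36 CPM in young libraries and 23.2, 29.1, 45.8, 25.3 and 91.9 CPM in old ones and had the highest change, 3.91 ± 0.50 (adjusted p 0.00177). Arnt2, a partner of basic helix-loop-helix PAS factors, stood at 1.46, 1.98, 2.74, 0.740 and 2.55 CPM in young libraries and 20.2, 16.8, 15.4, 16.4 and 46.9 CPM in old ones, a change of 3.57 ± 0.44 (adjusted p 0.00123). Both were near the low end of detection in young cells and present in every old library. Cdk5r1, the activator of the kinase CDK5, and Bhlhe41, a circadian repressor also known as DEC2, rose by 3.21 ± 0.44 and 2.66 ± 0.41 (adjusted p 0.00193 and 0.00475). Il1r2, a decoy receptor that binds interleukin 1 without signalling, stood at 24.3, 33.2, 45, 47.3 and 38.2 CPM in young libraries and 103, 128, 229, 225 and 543 CPM in old ones, with no overlap and a change of 2.73 ± 0.39 (adjusted p 0.00283). Ttn, the muscle protein titin, stood at 43.3, 51.8, 78.5, 57.0 and 56.0 CPM in young libraries and 331, 396, 206, 354 and 947 CPM in old ones, a change of 2.97 ± 0.35 (adjusted p 7.24e-04).

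Esm1, an endothelial proteoglycan, rose by 2.95 ± 0.31 (adjusted p 3.28e-04), from 3.70 to 8.78 CPM to 32.3 to 78.7 CPM. Its span in GENCODE (chr13:113209659-113218098, plus strand) lies inside the GENCODE span of Gzmk on the opposite strand. RefSeq ends Gzmk at base 113180965, before Esm1, and the Gzmk promoter above is placed by that RefSeq start, so the overlap holds in GENCODE alone. No source used here states which annotation was counted or whether counting used strand, so it is uncertain whether reads of the genes were kept apart. Tspoap1, which binds presynaptic proteins, rose by 2.64 ± 0.48 (adjusted p 0.0110). Ier3, an immediate early survival gene, and Ica1, an autoantigen of pancreatic islets, rose by 3.42 ± 0.71 and 2.86 ± 0.70 (adjusted p 0.0202 and 0.0388), with old values that differed widely. Ier3 stood at 10.1, 9.18, 17.6, 92.2 and 86.6 CPM and Ica1 at 7.07, 10.8, 9.21, 7.51 and 68.8 CPM in old libraries, and without old replicates 4 and 5 the adjusted p was 0.0821 and 0.0761. Batf, a partner of JUN in helper T cells, rose by 1.19 ± 0.18 (adjusted p 0.00475), at 163, 152, 158, 155 and 150.2 CPM in young libraries and 303, 285, 366, 272 and 548 CPM in old ones, and Prdm1, which encodes the repressor BLIMP-1, rose by 1.43 ± 0.30 (adjusted p 0.0202, and 0.0609 without old replicates 4 and 5).

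The naive and central memory list had 0 of 17 members higher and 1 lower with all libraries, and 1 higher and 5 lower without old replicates 4 and 5. Leaving out old replicate 4 alone gave 4 lower. Dapl1, a gene of resting T cells, fell in either case. It stood at 119.9, 139, 109, 101 and 126 CPM in young libraries and 23.2, 15.8, 22.9, 82.0 and 24.5 CPM in old ones, with old replicate 4 highest among the old, a change of -1.86 ± 0.36 (adjusted p 0.0135) and -2.54 (adjusted p 2.95e-05) without the 2 libraries. Ccr7, the receptor for lymph node homing, Lef1, a transcription factor of naive cells, and Satb1, a chromatin organiser, also fell without them, with changes of -1.04, -0.73 and -1.27 (adjusted p 0.0152, 0.0419 and 0.0232), and Il7r rose by 0.80 (adjusted p 0.0266). With all libraries these 4 had adjusted p of 0.212, 0.918, 0.999 and 0.535. The effector memory list gave 1 higher of 16, Capg, an actin capping protein (change 0.75 ± 0.17, adjusted p 0.0253), and 2 higher without those libraries. Capg lost its call without old replicate 5, young replicate 2 or young replicate 5 (highest adjusted p 0.0599).

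Dendritic cell genes fell in old CD4 memory libraries, and 5 of the 12 named genes with the lowest changes were on a dendritic cell list. All 13 tested members of the plasmacytoid dendritic cell list (14 listed), a cell type that makes type I interferon, fell, with a median of -2.36, as did 8 of 11 tested genes (14 listed) of conventional dendritic cells, which present antigen to T cells. Without old replicates 4 and 5, 8 of 13 and 8 of 13 fell. Leaving out 1 library left 5 plasmacytoid genes called without young replicate 2, 7 without old replicate 2 or 5, 8 without young replicate 4 and 9 to 12 in the other 6. Of the conventional genes 4 were left without young replicate 1 or 2, and 6 or 7 in the other 8. The plasmacytoid list summed to 1942, 4406, 943, 2459.7 and 1741 CPM in young libraries and 637, 461, 830.3, 258 and 231 CPM in old ones. Young replicate 2 was highest and young replicate 3 lowest among the young, and the groups did not overlap. The conventional list summed to 558, 715, 374, 489 and 415 CPM in young libraries and 150.5, 206, 189, 232 and 92.6 CPM in old ones, again with no overlap. That list includes Ccr7, which is also on the naive and central memory list of T cells. Ccr7 stood at 166 CPM in young replicate 3 and at 169 and 46.9 CPM in old replicates 4 and 5. The level of the conventional sum, highest among the old in replicate 4, is thus not one of dendritic cell genes alone. In bulk libraries, fewer cells of a type and less RNA per cell cannot be told apart.

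Siglech, a receptor that defines plasmacytoid dendritic cells (chr7:55768178-55778925, plus strand), stood at 204, 599, 102, 266 and 198 CPM in young libraries and 38.4, 24.1, 83.1, 8.88 and 7.27 CPM in old ones. It was highest in young replicate 2 and lowest among the young in replicate 3, as the summed list was, and its change was -2.98 ± 0.58 (adjusted p 0.0149). Tcf4 and Irf8, transcription factors that build dendritic cells, changed by -2.32 ± 0.37 and -2.43 ± 0.43 (adjusted p 0.00627 and 0.00988). Cd209a and Cd209d, lectins of the DC-SIGN family that share sequence, stood at 20.3 to 99.5 and 28.5 to 131 CPM in young libraries and 1.98 to 16.4 and 1.32 to 14.6 CPM in old ones (changes -2.72 ± 0.46 and -3.08 ± 0.52, adjusted p 0.00820 and 0.00820). Flt3, the receptor for the growth factor of dendritic cells, and Ccr9, a gut homing receptor that plasmacytoid dendritic cells also carry, changed by -2.32 ± 0.40 and -2.23 ± 0.35 (adjusted p 0.00857 and 0.00557). Stra6l had the lowest change of all named genes, -3.13 ± 0.47 (adjusted p 0.00458), at 34.5, 15.4, 16.5, 19.2 and 22.9 CPM in young libraries and 4.04, 3.17, 3.28, 0.683 and 0 CPM in old ones.

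Among the 12 lowest were also Kmo, an enzyme of tryptophan breakdown, Lifr, the receptor for leukaemia inhibitory factor, Bcl11a, a factor of dendritic and B cells, and Pkib, an inhibitor of protein kinase A. They changed by -2.65 ± 0.53, -2.52 ± 0.42, -2.50 ± 0.60 and -2.57 ± 0.38 (adjusted p 0.0179, 0.00724, 0.0343 and 0.00410). Adap2, Cd300c, Clec10a, a lectin of antigen presenting cells, and Slc40a1, the iron exporter ferroportin, completed the 12, with changes from -2.86 to -2.50. Clec10a stood at 23.6, 66.5, 8.23, 18.5 and 8.27 CPM in young libraries, where young replicate 2 was far above the rest, and its adjusted p was 0.0326, with calls in 4 of 10 fits leaving out 1 library and 0.101 without old replicates 4 and 5. Bcl11a kept its call in 4 of 10 such fits (highest adjusted p 0.0855).

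MHC class II genes fell with them. Of 11 members 9 fell and 0 rose (6 and 0 without old replicates 4 and 5), with a median of -1.73 and -1.24 without them. H2-Aa, the alpha chain of the class II molecule (chr17:34282744-34287823, minus strand), stood at 2668, 2447, 845, 1653 and 1377 CPM in young libraries and 514, 737, 652, 154 and 115 CPM in old ones. Old replicates 4 and 5 were lowest, young replicates 1 and 2 highest and young replicate 3 nearest to the old. The change was -2.04 ± 0.46 (adjusted p 0.0284), and -1.51 (adjusted p 0.0204) without the 2 libraries. Cd74, the invariant chain, stood at 1586 ± 622 CPM in young libraries and 578 ± 171 CPM in old ones (SD, n = 5 each; change -1.46 ± 0.27, adjusted p 0.0125), and Ciita, the class II transactivator, changed by -1.73 ± 0.37 (adjusted p 0.0231). The summed class II level was 3051 to 9387 CPM in young libraries and 761 to 2771 CPM in old ones. It was highest in young replicates 1 and 2, as was the conventional dendritic cell sum, at 558 and 715 CPM. The plasmacytoid sum was highest in young replicates 2 and 4. Without either young replicate 1 or young replicate 2 the falling class II genes numbered 2, without old replicate 5 they numbered 4, without old replicate 1 or 4 they numbered 5, and in the other 5 fits 6 to 9, and H2-Aa had a highest adjusted p of 0.0756 over those fits. The part of dendritic cell RNA in the fall of class II genes was not tested. The B cell list, whose cells also carry class II, had 0 of 8 tested members (12 listed) called by edgeR in either direction, 0 at an unadjusted p under 0.05 and 0 by DESeq2, and summed to 101 to 189 CPM in young libraries and 52.6 to 194 CPM in old ones.

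Of blood cell markers, 3 globin genes rose. Hbb-bs, a beta globin, stood at 1078, 859, 649, 499 and 359.5 CPM in young libraries and 4045, 1121, 1378, 1859.5 and 2709 CPM in old ones, with a narrow gap between young replicate 1 and old replicate 2, and changed by 1.69 ± 0.35 (adjusted p 0.0202). It and Hbb-bt and Hba-a1 were the 3 erythroid genes called of 6 tested (8 listed), and globin genes are near-copies whose reads can be shared. The erythroid count was 1 without old replicate 5, young replicate 2 or young replicate 4, and 2 to 4 in the other 7 fits, and it was 4 of 7 tested without old replicates 4 and 5. Neutrophil granule genes were high in old replicates 1 to 3 and not in old replicates 4 and 5. S100a8, a calcium-binding protein that fills the neutrophil cytosol, stood at 48.4, 34.0, 41.7, 63.6 and 31.2 CPM in young libraries and 405, 117, 397, 30.7 and 35.0 CPM in old ones. With all libraries edgeR called 0 of 5 tested neutrophil genes (10 listed; 4 at an unadjusted p under 0.05, 2 by DESeq2), and without old replicates 4 and 5 it called 5 of 7, all higher. The macrophage and monocyte list had 3 of 12 members (16 listed) lower, Adap2, Spic and Ly6c2, a count of 8 without old replicate 3 of 1 without old replicate 2, old replicate 5 or young replicate 2, and of 4 among 15 tested without old replicates 4 and 5. The plasma cell list had 1 of 8 (12 listed) higher, Prdm1, which T cells also express, and 0 without young replicate 1 or without old replicates 4 and 5. The lists of platelets, CD8 T cells, gamma-delta T cells and stroma had 1, 2, 1 and 1 members tested and 0 called by edgeR (1, 2, 0 and 0 at an unadjusted p under 0.05 and 0, 1, 0 and 0 by DESeq2). They had 1, 3, 1 and 3 tested without old replicates 4 and 5, with 1 platelet gene and 1 stroma gene lower. The part of these cells in any other result was not tested.

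**Figure D4:**
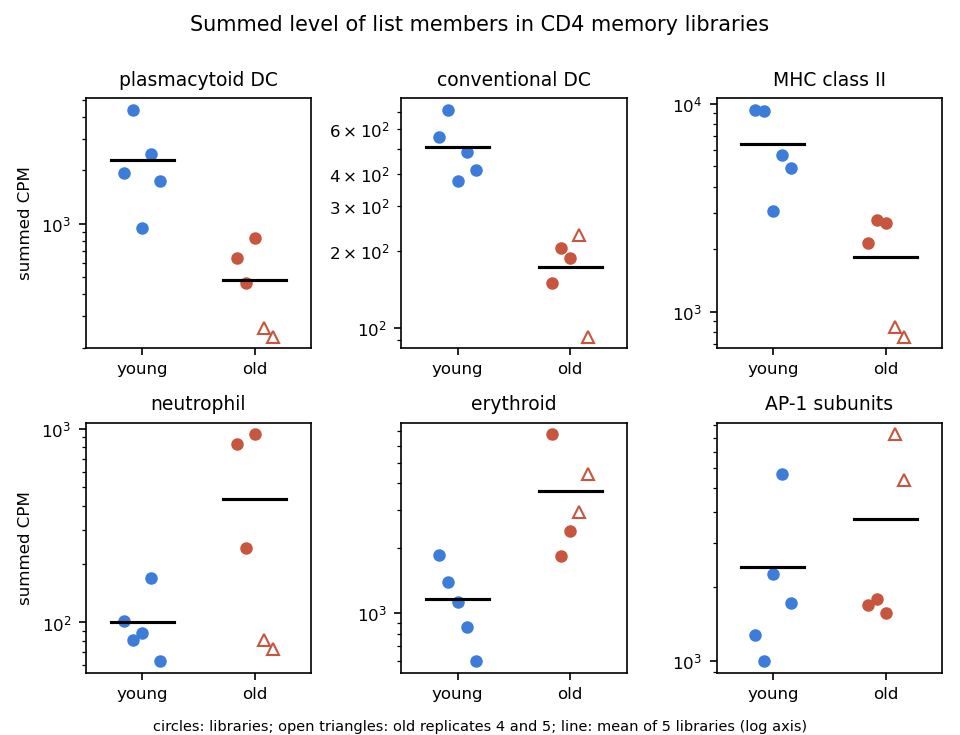
Summed CPM (log axis) of 4 cell type marker lists, the MHC class II list and the AP-1 list in each young and old CD4 memory library, with group means. The dendritic cell and class II sums are lower in all old libraries, the neutrophil sum is high in old replicates 1 to 3 alone, and the AP-1 sum is high in young replicate 4 and old replicates 4 and 5.

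Of 30 proliferation genes tested (33 listed), 4 fell and 0 rose, 2 had positive values, and the median change was -0.72. Mki67, which marks dividing cells, stood at 82.5, 95.4, 99.9, 81.4 and 67.4 CPM in young libraries and 53.5, 47.2, 35.4, 12.3 and 38.3 CPM in old ones, a change of -1.20 ± 0.27 (adjusted p 0.0293). The groups did not overlap, and old replicate 4 was lowest. Hmgb2, a chromatin protein of dividing cells, changed by -0.74 ± 0.15, Ccnb2, a mitotic cyclin, by -1.38 ± 0.31, and Ube2c, a ubiquitin carrier of the anaphase promoting complex, by -1.42 ± 0.35 (adjusted p 0.0202, 0.0279 and 0.0383). Without old replicates 4 and 5 only Mki67 was called, 1 of 32 tested, and the median was -0.39. Mki67, Ccnb2 and Ube2c all lost their calls without old replicate 5, young replicate 1 or young replicate 2. Mki67 also lost its call without old replicate 3 or young replicate 3 or 4, and Ccnb2 without old replicate 2 or 4. Ube2c also lost its call without old replicate 1, 2 or 4 or young replicate 3 or 4. The highest adjusted p of the 3 genes over the 10 fits were 0.0799, 0.0850 and 0.123. The count of falling members was 1 without old replicate 5, young replicate 1 or young replicate 2, 2 without old replicate 2, old replicate 4 or young replicate 3, and 3 to 6 in the other 4 fits.

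Cholesterol synthesis genes had 2 of 17 tested members (22 listed) lower and 0 higher, and 0 of 17 had a positive value, with a median of -0.62. Without old replicates 4 and 5 the count was 1 lower of 20. Hmgcs1, the synthase that makes HMG-CoA (chr13:119690379-119708260, plus strand), stood at 63.7, 70.1, 57.6, 63.6 and 52.2 CPM in young libraries and 29.3, 37.7, 28.3, 33.5 and 19.8 CPM in old ones. Each old library lay below each young one, and the change was -1.04 ± 0.19 (adjusted p 0.0104).

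Promoters of one called gene from each of these lists are shown, since most tested members of both had negative values, though 4 of 30 and 2 of 17 passed. They come from RefSeq on GRCm38.p6 over the same window as above. In Hmgcs1 (chr13:119690101-119690400) capitals mark the sterol response element letters TCACNCCAC, and in Ube2c (chr2:164769679-164769978) they mark the CCAAT box, read as CCAAT or, on the other strand, ATTGG.
Hmgcs1: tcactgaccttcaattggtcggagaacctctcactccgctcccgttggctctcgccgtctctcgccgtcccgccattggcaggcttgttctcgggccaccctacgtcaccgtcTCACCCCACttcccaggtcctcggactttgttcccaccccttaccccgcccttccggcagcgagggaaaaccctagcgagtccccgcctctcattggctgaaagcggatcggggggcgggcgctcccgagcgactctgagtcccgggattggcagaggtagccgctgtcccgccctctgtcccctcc
Ube2c: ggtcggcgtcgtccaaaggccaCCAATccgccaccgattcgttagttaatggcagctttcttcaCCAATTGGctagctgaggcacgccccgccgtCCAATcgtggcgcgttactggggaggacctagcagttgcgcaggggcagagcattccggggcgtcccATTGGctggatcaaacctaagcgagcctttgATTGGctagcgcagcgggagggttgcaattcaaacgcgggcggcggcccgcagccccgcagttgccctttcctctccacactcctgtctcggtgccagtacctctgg
The Hmgcs1 match begins 137 bases before the start and was the only one among 13 cholesterol promoters available, against 1.44% of all promoters in the table. Ube2c held 6 CCAAT boxes, 2 of them overlapping on opposite strands. A CCAAT box occurred in 21 of 25 proliferation promoters (84%) and in all 13 cholesterol promoters, against 41.1% of all promoters.

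Interferon-stimulated genes did not rise. Of 38 tested (43 listed), 3 fell and 0 rose, with a median of -0.21, and 2 and 0 of 40 without old replicates 4 and 5. The falling genes numbered 5 without old replicate 3 and 1 without old replicate 2 or old replicate 5. Ifi206, a DNA sensor family member with near copies, stood at 183, 124, 161, 151 and 160.3 CPM in young libraries and 94.9, 92.8, 58.4, 108 and 77.4 CPM in old ones (change -0.87 ± 0.18, adjusted p 0.0181). Usp18, which restrains the interferon receptor, changed by -1.04 ± 0.24 (adjusted p 0.0326), kept in 2 of 10 fits leaving out 1 library. Bst2 is also a plasmacytoid dendritic cell marker and peaked at 335 CPM in young replicate 2. Isg15, a ubiquitin-like protein induced by interferon, was not called, with a change of 0.07 ± 0.26 (adjusted p 0.958). Ifnar2, a chain of the interferon receptor, was the 1 called gene of 20 cytokine receptors (1 higher and 1 lower of 20 without old replicates 4 and 5, and 2 lower without old replicate 4 alone), with a change of -1.01 ± 0.19 (adjusted p 0.0134), at 89.8 ± 16.3 CPM in young libraries and 44.0 ± 10.7 CPM in old ones (SD, n = 5 each).

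AP-1 and immediate early genes were high in 3 libraries of both ages. The AP-1 list summed to 1269, 997, 2243, 5723 and 1723 CPM in young libraries and 1689.6, 1786, 1564, 8240.1 and 5392 CPM in old ones. Young replicate 4 and old replicates 4 and 5 were far above the other 7, and the list's median change was 0.45 with all libraries and -0.69 without old replicates 4 and 5. Fos, a subunit induced within minutes of stimulation or handling, stood at 74.7, 37.6, 258, 701 and 131 CPM in young libraries and 64.6, 134, 56.0, 659.9 and 744 CPM in old ones and was not called (adjusted p 0.889). Of 10 tested AP-1 genes (12 listed) Batf was higher and Batf3, which conventional dendritic cells need, was lower. Of 20 immediate early and heat shock genes 3 were higher, Ier3, Egr2 and Hspa1b, and 2 without the 2 libraries. None was called without young replicate 1 or young replicate 2, and 1 without old replicate 2. Egr2, a factor induced by T cell receptor signals, stood at 21.7, 13.1, 25.8, 18.5 and 22.9 CPM in young libraries and 34.3, 42.7, 44.8, 38.3 and 39.0 CPM in old ones, a change of 0.98 ± 0.21 (adjusted p 0.0219), and Hspa1b, whose reads can be shared with its near copy Hspa1a, was called in 2 of 10 fits that left out 1 library.

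The master regulators of Th1 and Th2 cells were not called. Tbx21 stood at 58.9, 36.8, 41.7, 54.7 and 43.3 CPM in young libraries and 57.6, 51.0, 37.2, 27.3 and 16.5 CPM in old ones, and Gata3 ranged from 256 to 386 CPM in young and from 264 to 506 CPM in old ones (adjusted p 0.736 and 0.629). The values of both overlapped between ages. Of the helper lists, edgeR called 0 of 5 Th2 genes (12 listed; 2 at an unadjusted p under 0.05, 1 by DESeq2) and 0 of 8 Th17 genes (13 listed; 1 at an unadjusted p under 0.05, 0 by DESeq2), and 1 of 14 Th1 genes (15 listed) was lower, Ly6c2, which monocytes also express. T cell receptor signalling genes had 2 of 23 higher, Ptpn22 and Zap70, with changes of 0.69 ± 0.15 and 0.71 ± 0.17, and 0 without old replicates 4 and 5 (adjusted p 0.0678 and 0.0562). MHC class I had 1 of 17 higher, H2-Q7, a nonclassical gene with near copies, with a change of 0.70 ± 0.13 (adjusted p 0.0105). Leaving out old replicates 4 and 5, the counts were also 1 lower of 14 for Th1 and 1 higher of 17 for MHC class I, and 0 for the 7 Th2 and 8 Th17 genes tested. Ly6c2 lost its call without old replicate 2 or 5 or young replicate 1 or 2. Glycolysis had 1 of 16 (19 listed) higher, Aldoa, a glycolytic aldolase, but that call held in 1 of 10 fits leaving out 1 library, the one without old replicate 4, and was lost with RLE factors, with either other filter, with the replicate block and without old replicates 4 and 5 (adjusted p 0.0644). Chemokine receptors had 1 of 20 (24 listed) lower, Ccr9, and 2 of 20 without old replicates 4 and 5 or without old replicate 4 alone. Without old replicate 3, 2 were lower and 2 higher.

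The nuclear genes of oxidative phosphorylation had 0 of 34 called by edgeR or DESeq2 and 1 at an unadjusted p under 0.05, with a median of -0.03 and a range from -0.36 to 0.24. Cell cycle inhibitors, which include the senescence genes Cdkn1a and Cdkn2b, had 0 of 7 called by edgeR or DESeq2 (9 listed; 1 at an unadjusted p under 0.05), and Cdkn2a did not pass the filter on low counts. Cdkn1a stood at 12.4, 22.2, 23.1, 66.6 and 11.5 CPM in young libraries and 42.4, 14.6, 23.2, 101 and 93.2 CPM in old ones, high in the same 3 libraries as the AP-1 genes (adjusted p 0.472). The DNA methylation list had 0 of 8 called by edgeR or DESeq2 (9 listed; 3 at an unadjusted p under 0.05), with a median of -0.43. Of T cell identity genes 1 of 15 was higher, Cd2, an adhesion receptor, with a change of 0.57 ± 0.13 (adjusted p 0.0330), a call kept in 2 of 10 fits leaving out 1 library.

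**Figure D5:**
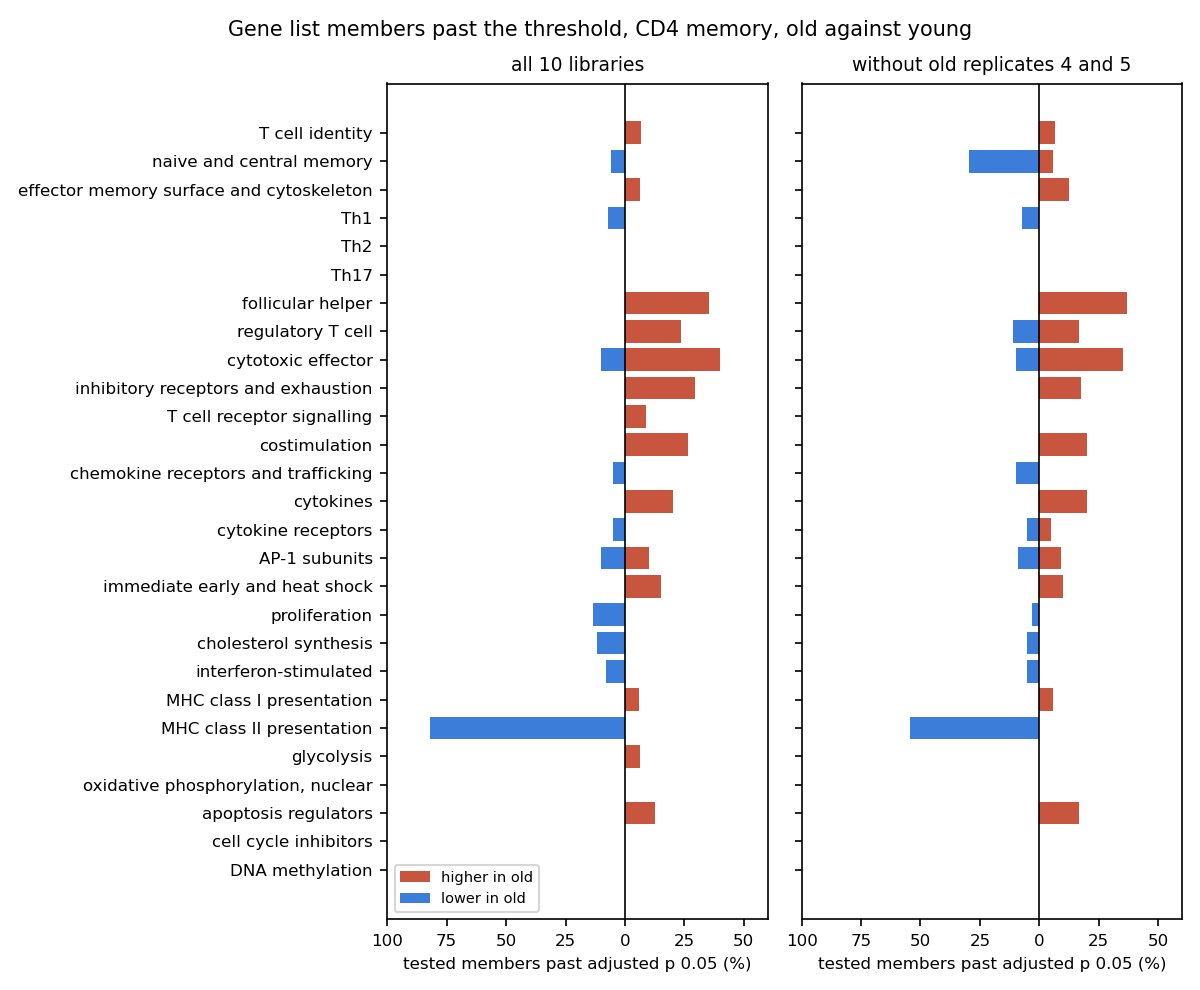
Share of tested members of each gene list past an adjusted p of 0.05, to the right for genes higher in old and to the left for genes lower in old CD4 memory cells, with all libraries and without old replicates 4 and 5. The background was 1.46% of all genes tested higher and 1.66% lower with all libraries, and 1.49% and 1.09% without the 2 libraries.

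Measures of whole libraries, 7 in all, were compared by an exact two-sided permutation test over every assignment of libraries to ages, in which the smallest possible p is 0.00794. They were total counts, genes with a count, immunoglobulin share, share of the 50 highest genes and, for T cell receptor beta V segments, their counts, the share of the most abundant segment and the effective number. None passed, with adjusted p from 0.556 to 0.714. The most abundant beta V segment held 16.3 ± 4.28% of beta V counts in young and 13.4 ± 1.05% in old libraries (SD, n = 5 each; exact permutation p = 0.0794). The effective number of segments was 12.9 ± 1.74 in young and 13.3 ± 0.934 in old libraries. Each rested on 200 to 1978 beta V counts in a library.

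The age change was also set against that of CD8 memory cells of the spleen, the killer counterpart, with 3 old and 3 young libraries. Of 12305 genes tested, 18 had a more positive change in CD4 memory cells (0.146%) and 6 a more negative one (0.0488%), 24 in all (0.195%). The change of Gzmk differed by -0.55 ± 0.46 between the subsets, that of Eomes by 1.45 ± 0.80, of Maf by 0.16 ± 0.34 and of Bcl2 by -0.53 ± 0.30 (adjusted p 0.731, 0.551, 0.923 and 0.565), and these p do not show that the subsets changed alike. Tmprss13, a membrane serine protease, was the lowest, with a difference of -4.33 ± 0.59 (adjusted p 0.00339). It stood at 51.1 ± 15.1 CPM in young and 25.9 ± 8.37 CPM in old CD4 memory cells, and at 12.3 ± 4.41 and 129 ± 72.5 CPM in CD8 memory cells (SD, n = 5 and 3). Axl, a receptor that recognises dying cells, had a difference of 4.44 ± 0.68 (adjusted p 0.0100), at 72.1 ± 15.0 CPM in young and 8.46 ± 1.79 CPM in old CD8 memory cells.

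Several of the most positive differences were in genes of red blood cells, which were high in young CD8 memory libraries. Hba-a1 stood at 3894 ± 1411 CPM there and at 769 ± 568 CPM in old CD8 memory libraries, a difference of 4.15 ± 0.70 (adjusted p 0.0214). Ypel4, Nfe2 and Trim10, the other 3 of the 5 highest beside Axl and Hba-a1, had differences of 5.97 ± 1.06, 4.31 ± 0.80 and 3.98 ± 0.80. The part of red cell RNA was not tested. The remaining low genes were Cd8a, Ifit1bl1 and Thap3, with differences of -3.40 ± 0.68, -1.78 ± 0.33 and -1.64 ± 0.32. Over the 16 fits that left out 1 library, these calls were lost in 13, 9 and 14, and Cd8a and Thap3 had an adjusted p of 0.0530 each without CD4 memory old replicates 4 and 5. Cd8a, a chain of the CD8 co-receptor, stood at 184 ± 67.5 CPM in young and 438 ± 149 CPM in old CD8 memory cells (SD, n = 3 each), against 588 ± 90.3 CPM in 4 young CD8 naive libraries, and at 7.10 ± 5.64 and 1.26 ± 0.996 CPM in young and old CD4 memory cells (SD, n = 5 each). The young CD8 memory libraries were thus lower in the mean than old CD8 memory and young CD8 naive libraries for the gene that defines their label. The calls of Tmprss13, Axl, Hba-a1, Ypel4, Nfe2 and Trim10 were lost in 0, 1, 5, 7, 10 and 13 of the 16 fits. The total of 24 ranged from 2 to 176 when 1 library was left out, highest without CD8 memory old replicate 2 and lowest without CD8 memory old replicate 3. It was 51 without CD4 memory old replicates 4 and 5.

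Against CD4 naive cells the comparison rested on libraries that went against their label. On a scale shared with the naive libraries, Cd44 stood at 34.8, 108 and 379 CPM in the 3 libraries labelled CD4 naive old and at 17.6 to 40.1 CPM in the 4 labelled CD4 naive young. Lef1 stood at 551, 217 and 115 CPM in the first and 1146 to 1471 CPM in the second, and Maf, a gene of experienced helper cells, at 683, 909 and 762 CPM against 22.3 to 40.4 CPM. Of 13562 genes tested, 58 had a more positive change in memory than in naive cells (0.428%) and 570 a more negative one (4.2%), 628 in all (4.63%). Of the 152 genes that rose in memory cells 1 was called more positive and 28 more negative, and of the 173 that fell 103 were called more negative. Bcl2 was among the more positive, with a difference of 1.70 ± 0.22 (adjusted p 1.47e-04), whereas Maf had a difference of -3.41 ± 0.32 (adjusted p 8.34e-06). Gzmk and Eomes were not called, with differences of -0.31 ± 0.47 and 0.02 ± 0.85 (adjusted p 0.808 and 0.993). Without the library labelled CD4 naive old replicate 1 the total was 1176, without replicate 3 it was 258, and without CD4 naive young replicate 4 it was 416.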

How the data were processed

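Poly(A) RNA of 10 CD4 memory libraries was read from its 3' ends, per the labels' protocols, with an index of 8 bp per sample and a random molecular identifier of 10 bp. Use of the identifiers to remove copies, and of strand in counting, are both unstated. Builds GRCm38.p6 and mm10 and the tools sabre (80faf94), featureCounts (2.0.1) and STAR appear in the submitters' processing notes. Deposited values were unnormalized whole counts for 55484 genes in 170 libraries. Of these, 26 entries with names turned into dates (0.216% of CD4 memory counts) were not named. CD4 memory libraries held 1107420 to 12734169 counts.

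Counts were scaled by TMM, filtered (filterByExpr, minimum count 10, minimum total 15) and tested with edgeR 4.0.16 in R 4.3.3 (quasi-likelihood, Benjamini-Hochberg over all genes tested, threshold 0.05), on the 2 ages alone or, for differences between subsets, on 4 groups with 1 mean each. The fits were checked on simulated counts. Levels are CPM. Alternatives were DESeq2 1.42.0, RLE factors, no filter, a stricter filter (2 CPM in 5 libraries), a replicate block, each library left out, and old replicates 4 and 5 left out.

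The comparison and the 39 gene lists were chosen with earlier results of these data known. Named genes were the 12 highest and 12 lowest called ones at 20 CPM or more in the higher group with no overlap between ages, up to 5 called genes of each list by lowest adjusted p (2 by lowest p where none was called), and lineage regulators. For the CD8 memory difference they were the 5 highest and 5 lowest at 20 CPM or more, of which 4 low ones qualified. Unnamed models, pseudogenes, antisense genes, receptor segments, sex-linked Xist, Tsix and Y genes were left out. A few genes of the lists are not reported here. Other genes given with values were chosen after their values were seen. Positions are from GENCODE on GRCm38. Promoters are from RefSeq on GRCm38.p6, where 84 of 109 named genes matched. No label says that replicates are more than separate pools, so p-values measure the spread between these libraries.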

Additional observations from a re-analysis of the deposited data

Results flagged for a closer look

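In the 228 groups of 5 values checked, 22 had a highest or lowest library apart from its nearest neighbour by more than 0.71 of the group's range. Independent, normally distributed values would pass that limit in about 1 in 20 groups. CPM need not be normal, and most groups were of genes named from these same libraries, so that rate is not a fair comparison for the 22. Among the old libraries the highest value stood apart for Arnt2 at 46.9 CPM, Cdk5r1 at 66.8 CPM, Ttn at 947 CPM, Ica1 at 68.8 CPM, Il1r2 at 543 CPM, Tox at 768 CPM and Csf1 at 55.5 CPM, each in old replicate 5. Old replicate 4 stood apart for Dapl1 at 82.0 CPM and old replicate 3 for Clec10a at 8.01 CPM. Old replicate 3 also held the highest total, 12734169 counts, and the most beta V counts, 1978.

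Among the young libraries replicate 2 stood apart for Clec10a at 66.5 CPM and Kmo at 119 CPM. Replicate 1 stood apart for Hmgb2 at 679 CPM and Sdhb at 232 CPM, for genes with a count at 31347, and at the low end for Sostdc1 at 30.7 CPM. Replicate 3 stood apart for Eomes at 29.6 CPM, replicate 4 for Cdkn1a at 66.6 CPM and replicate 5 for Casp4 at 63.6 CPM. In young replicate 4 the most abundant beta V segment held 23.9% of beta V counts, and the effective number of segments there was 9.77.

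The age change differed between CD4 memory and CD4 naive cells for many named genes, as tested by edgeR's quasi-likelihood test of the difference (adjusted p under 0.05). These rest on libraries labelled CD4 naive old that carried memory genes. The log2 difference between the age change in memory and in naive cells was negative for Stra6l, Cd209a, Pkib, Lifr, Bcl11a, Slc40a1, Ly6c2, Ccr9, Batf3 and Bst2, at -5.74, -3.94, -3.89, -3.81, -3.83, -3.81, -4.26, -2.04, -5.93 and -1.61. Class II genes and further genes of antigen presenting cells had negative differences, H2-Eb2, Cd74, Ciita, H2-Aa, Tcf4, Irf8, Wdfy4 and Cd79b, at -5.44, -2.61, -3.77, -3.74, -4.11, -3.92, -3.27 and -2.99. Receptors, lineage and memory genes with negative differences were Ccr3, Ccr4, Tmem176b, Tbx21, Cd44, Capg and Ifnar2, at -3.97, -3.81, -4.76, -3.12, -2.99, -1.59 and -1.40. The same direction was found for Maf, Pdcd1, Sostdc1, Tox2, Tnfrsf4, Tnfrsf18, Nt5e, Penk and Casp4, at -3.41, -2.57, -4.01, -4.17, -2.29, -1.06, -2.13, -3.06 and -3.48. Cytotoxic and dividing cell genes with negative differences were Cst7, Gzma, Hmgb2, Ccnb2, Mki67 and Ube2c, at -1.79, -2.10, -1.33, -2.58, -3.01 and -3.23. Bcl2 had a positive difference of 1.70.

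Against CD8 memory cells the same test gave positive differences for Hbb-bs, Hbb-bt and Hba-a1 at 3.73, 3.80 and 4.15, and for Ypel4, Axl, Nfe2 and Trim10 at 5.97, 4.44, 4.31 and 3.98. It gave negative differences for Tmprss13, Cd8a, Ifit1bl1 and Thap3 at -4.33, -3.40, -1.78 and -1.64.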

How the results depend on the processing

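The 152 higher and 173 lower genes became 273 and 294 with DESeq2 and 429 and 410 with no filter on low counts. RLE factors gave 147 and 175, a stricter filter 168 and 189, and the setting without old replicates 4 and 5, chosen after seeing the data, 176 and 129. Leaving out 1 library gave 78 to 174 higher and 55 to 194 lower genes. The 24 genes whose change differed from CD8 memory cells became 153 with DESeq2, 368 with no filter and 51 without old replicates 4 and 5, and leaving out 1 library gave 2 to 176. The 628 that differed from CD4 naive cells became 953 with DESeq2 and 1007 with no filter, and leaving out 1 library gave 258 to 1176. The cause was not tested for any of these.

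A fit with the replicate number as a block gave 155 higher and 195 lower genes, 3 genes that differed from CD8 memory and 314 that differed from CD4 naive cells. No label says what a number marks, and the deviations of same-numbered old and young libraries from their group means had correlations of 0.253, 0.136, -0.195, 0.178 and 0.0432, so the numbers were not taken to pair the libraries. Old replicates 1, 2 and 4 correlated best with their own number and the other two did not.

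Of 84 called genes among those named, 82 of 83 with a value kept their call with DESeq2, 82 with RLE factors, 82 with the stricter filter, 77 with no filter, 75 with the block and 65 without old replicates 4 and 5. In every fit that left out 1 library 44 of 84 kept it, and the fewest, 48, did so without young replicate 2. Their sign was the same in all of these settings, which share most or all of the libraries. Without old replicate 1, the shallowest library at 1107420 counts, 129 genes were higher and 120 lower.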
